A study of Bos taurus with 12 samples.

Results

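The medium-only regions are stretches of the cattle genome in which a methylation peak was called in all 4 libraries of the medium methylated DNA and in none of the 8 libraries of the high and low methylated DNA. They were found by joining the peaks of the 12 single libraries that shared 1 bp or more on chromosomes 1 to 29, which gave 74459 regions. Of these, 13669 had a peak in all 4 medium libraries, and 626 of those had no peak in any other library. The medium-only regions were thus 0.841% of all joined regions and 4.58% of those called in every medium library. The regions were chosen by the authors' peak calls at the 3 methylation levels, so their lack of high and low peaks is the definition and not a result, and it was not tested.

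The DNA came from longissimus muscle of Angus steers of one cohort, about a year old and fed alike. The tender group (TE) had the lowest and the tough group (TO) the highest shear force, and 2 animals of each group were drawn at random for sequencing. No animal was treated. The captured DNA of each group's animals was eluted in 3 steps into high (HTE, HTO), medium (MTE, MTO) and low (LTE, LTO) methylated fractions, with 2 replicate libraries in each of the 6 conditions. The sources disagree on which salt buffer gave which fraction, so a fraction is called here by its methylation level alone. A muscle sample holds fibres together with fat, connective tissue and blood cells, and a methylation peak cannot be assigned to one of them.

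In mammals, DNA methylation is placed mostly on cytosines that precede a guanine (CpG). It is widespread in gene bodies, repeats and the DNA between genes, and it is commonly low at the CpG-rich starts of active genes. In MBD-seq, a methyl-CpG binding protein holds fragments with methylated CpGs, and fragments with more of them are in general held more firmly, so stepwise elution sorts the captured DNA by methylation density. A peak is a place where more tags stack up than in the surrounding DNA of the same library. No genome or annotation of bosTau8, the build of these peaks, was used here, so the bases, CpGs and genes under the regions were not analysed here and the regions are named by position.

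Every peak rests on the tags left after duplicates were removed. The medium libraries had 5969045 to 6886676 such tags, the high libraries 3677473 to 4843388 and the low libraries 5770411 to 7981292. In the medium libraries the pileup at a medium-only region, that is the number of extended tags stacked at the summit, had a median of 13 in MTE_1, 13 in MTE_2, 11 in MTO_1 and 11 in MTO_2. Scaled to a depth of 1000000 tags, the medians of this scaled pileup were 1.97, 1.89, 1.83 and 1.84. At their mean of 1.88, the 4 high libraries would have held 6.93 to 9.12 tags at a summit, and the fewest tags at which a peak was called in those libraries were 4 or 5. The low libraries would have held 10.9 to 15.0 tags. The shallower high libraries left less room above the calling limit than the low libraries did, and the part of depth in the missing high peaks was not tested.

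The medium-only regions were narrow. Their median width was 278 bp, from 185 to 781 bp, against 410 bp for all regions called in the 4 medium libraries. Regions called in all 8 high and medium libraries and in no low one (n = 909) had a median of 465 bp. Those called in all 8 medium and low libraries and in no high one (n = 332) had a median of 387 bp. Within single libraries the median length under peaks at a medium-only region was 207 bp in MTE_1, 202 bp in MTE_2, 198 bp in MTO_1 and 218 bp in MTO_2. Over all regions called in the 4 medium libraries it was 297, 291, 286 and 303 bp in that order. The shortest at a medium-only region was 157, 146, 162 and 175 bp. This equals the fragment length that MACS2 estimated for each library and is the least a peak can have. The summits of the 4 libraries lay close together, with a median of 65.5 bp between the outermost ones against 70 bp over all regions called in the 4 medium libraries. Widths grow when more libraries are joined, and these values describe the regions and were not tested.

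Fold enrichment, the pileup over the local background of the same library, had medians of 7.09 in MTE_1, 7.13 in MTE_2, 6.93 in MTO_1 and 6.85 in MTO_2 at the medium-only regions. These are near the medians over all 13669 regions called in the 4 medium libraries, which were 7.10, 7.21, 6.96 and 6.85. The −log10 q was lower at the medium-only regions, with medians of 7.84 to 8.83 against 12.3 to 13.6. The mean fold over the 4 libraries was between 5 and 10 in 566 of the 626 regions and above 10 in 16.

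A limit on fold enrichment split the medium-only regions into a large and a small set, as the plot of pileup against fold enrichment shows. In 28 regions the fold enrichment was below 3 in all 4 medium libraries, a limit chosen after the values were seen. Such regions were 4.47% of the medium-only regions and 20.3% of all 13669 regions called in the 4 medium libraries. Their pileup was high, with medians of 151, 142, 150 and 154 tags in MTE_1, MTE_2, MTO_1 and MTO_2. The local background recomputed from pileup and fold had medians of 65.7 to 74.0 tags there, against 0.53 to 0.79 tags in the other 598 regions. The small set therefore lay on ground where tags were dense throughout. This background is computed from pileup and fold, so it is no result separate from the limit. All 28 regions had a high or low peak within 1207 bp, and 10 of them were on chromosome 8. That chromosome was also rich in regions of fold below 3 among the 13669. It held 901 regions called in the 4 medium libraries, and 500 without those of fold below 3. The other 598 regions had median pileups of 11 or 12 tags on nearly empty ground.

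**Figure D1:**
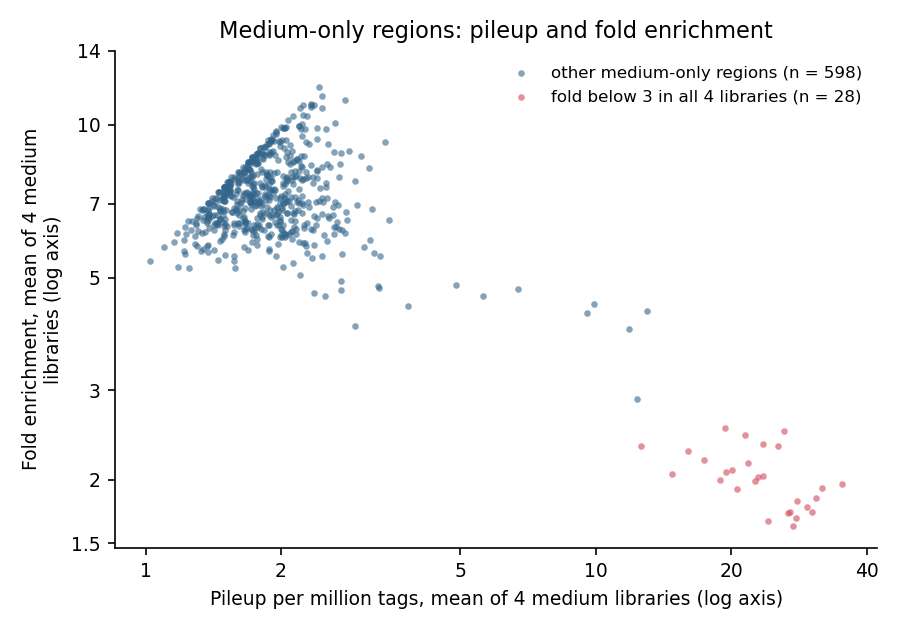
Each point is 1 of the 626 medium-only regions, with the mean scaled pileup (per 1000000 tags) of the 4 medium libraries on the horizontal axis and the mean fold enrichment on the vertical axis, both on log axes. The 28 regions of fold below 3 in all 4 libraries (red) lie at high pileup and low fold, apart from most of the other 598 (blue).

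The strongest members were the regions whose lowest fold over the 4 medium libraries was highest, a choice that itself favours even values. At chr3:24199440-24199714 (275 bp), the fold was 12.2 in MTE_1, 10.1 in MTE_2, 9.46 in MTO_1 and 11.4 in MTO_2. At chr17:4259786-4260111 (326 bp), it was 12.9, 11.4, 10.2 and 9.27 in the same order. At chr1:138513480-138513753 (274 bp), it was 12.2, 9.37, 10.8 and 9.27. In the first and last of these a tough library lay between the tender libraries, and at the chromosome 17 region both tender libraries were higher. The region at chr21:2952627-2952994 (368 bp) was the most even of the 5, with folds of 9.13, 9.18, 9.85 and 9.27. Both tough libraries were slightly higher there than both tender libraries. At chr7:104962655-104962971 (317 bp), both tender libraries exceeded both tough libraries, with folds of 11.7 and 13.4 against 8.73 and 9.99. All of these rest on 11 to 19 tags per summit. All 5 also had a peak in merged high or low lists, which pool the replicates of a condition. In the order given, 2, 2, 3, 4 and 3 of those 4 lists had one.

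The widest member, chr9:104498348-104499128, spanned 781 bp, and its folds were 7.16 and 6.37 in the tender and 5.85 and 5.83 in the tough libraries. The member farthest from any high or low peak was chr10:37091791-37092049, with the nearest high peak 173449 bp and the nearest low peak 222511 bp away. It had 9 and 10 tags in the tender and 7 and 12 tags in the tough libraries. It held a peak in the merged low list of tough beef.

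Just inside the rule stood chr4:115369824-115370165, whose weakest medium peak, in MTO_2, had a −log10 q of 2.88 and 14 tags. Just outside stood chr23:2876717-2876993, which had 10, 17, 10 and 11 tags in MTE_1, MTE_2, MTO_1 and MTO_2 and a single low peak of 6 tags in LTO_1 with a −log10 q of 2.29. There were 1175 regions of this kind, called in all 4 medium libraries and in 1 other. For 380 of them the other library was LTO_2, for 247 LTO_1, for 212 HTE_2 and for 15 LTE_1. A further 1778 regions were called in 3 medium libraries and in no high or low one, and the missing library was MTO_1 in 651, MTO_2 in 590, MTE_1 in 330 and MTE_2 in 207. The rule sets a condition on each of the 12 libraries, so leaving 1 out mostly adds regions. The number of medium-only regions ranged from 642 without LTE_1 to 1281 without MTO_1. It was 1218 without MTO_2, 1006 without LTO_2 and 966 without MTE_1.

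The merged lists, called by the authors on the pooled reads of both replicates, hold the same reads at greater depth, and they were used to see how many medium-only regions had a weaker high or low peak. The merged list of HTE had a peak in 259 of the 626 regions (41.4%), that of HTO in 135 (21.6%), that of LTE in 162 (25.9%) and that of LTO in 372 (59.4%). Merged HTE and HTO rest on 7730604 and 5931831 tags, which is about the depth of a single medium library. Merged LTE and LTO rest on 11586162 and 13191401 tags. At least 1 of these 4 lists had a peak in 522 regions (83.4%), and all 4 had one in 12. Over all 13669 regions called in the 4 medium libraries the share with such a peak was 99.2%, with 86.0% for HTE, 79.0% for HTO, 69.2% for LTE and 90.1% for LTO. Of the 522 regions, 106 had high peaks without low ones, 208 low peaks without high ones and 208 both. The remaining 104 regions (16.6%, Wilson 95% interval 13.9 to 19.7%, which covers counting error only) had no high or low peak in the merged lists either. Of these 104, 11 belonged to the small set of dense ground. Among the 13669 the share was 0.819%, or 112 regions, which include the 104. These gaps follow in large part from the rule and were not tested. Those of the 13669 that were not medium-only all had a peak in a single high or low library, whose reads the merged lists hold.

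**Figure D2:**
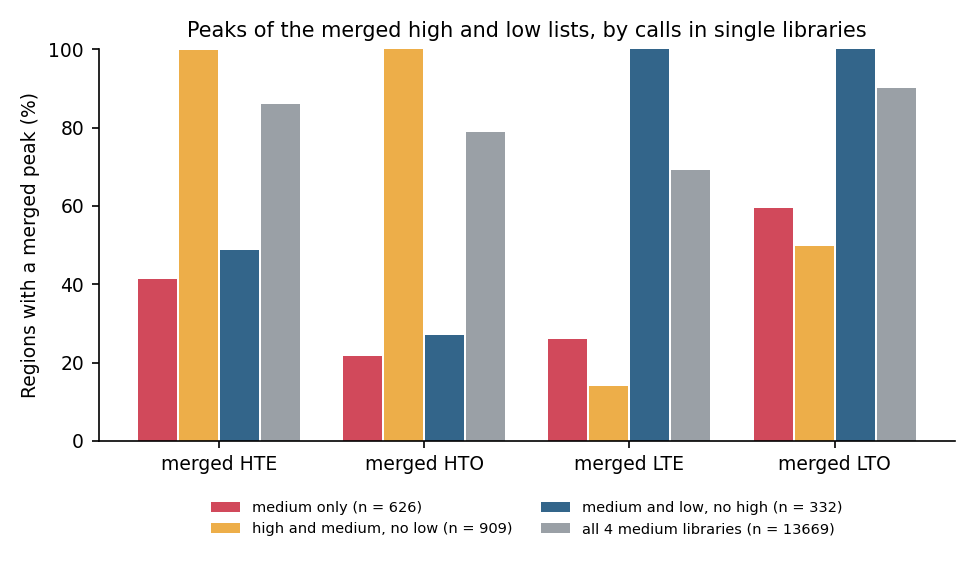
Bars give the share of regions (%) with a peak in each of the 4 merged high and low lists, for the 626 medium-only regions, for regions of 2 related patterns of calls in single libraries and for all 13669 regions called in the 4 medium libraries. Of the medium-only regions (red), 41.4% had a merged HTE peak, 21.6% an HTO, 25.9% an LTE and 59.4% an LTO peak.

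The merged high and low peaks at medium-only regions were lower than the merged medium peaks at the same places. Where LTO had a peak, its median fold was 5.09 against 9.63 in MTO, and its scaled pileup was below that of MTO in 372 of 372 regions. Where LTE had one, the median fold was 5.16 against 9.62 in MTE, with a lower scaled pileup in 162 of 162. For HTE the median fold was 6.46 against 9.46 in MTE, with a lower scaled pileup in 236 of 259 regions (91.1%). For HTO it was 6.26 against 9.06 in MTO, with a lower scaled pileup in 114 of 135 (84.4%). These are the authors' single values per list, they come from the reads that the rule used, and the direction was therefore not tested. The medium peaks themselves were present in 626 regions in merged MTE and in 625 in merged MTO.

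Low peaks lay nearer to the medium-only regions than high peaks did. The median distance to the nearest peak of any high library was 17882 bp, and to the nearest peak of any low library it was 6673 bp. A high peak lay within 1000 bp of 64 regions (10.2%) and a low peak within 1000 bp of 116 (18.5%). The low lists together hold more peaks than the high lists, and the distances were not corrected for this. The rule leaves out regions that touch a high or low peak, and the distances were not taken for other regions. Distances between the medium-only regions were taken without a comparison set, so they do not show whether the regions were clustered or spread. No pair lay within 1000 bp, 14 regions had another medium-only region within 10000 bp, and the median distance to the next one was 459856 bp.

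**Figure D3:**
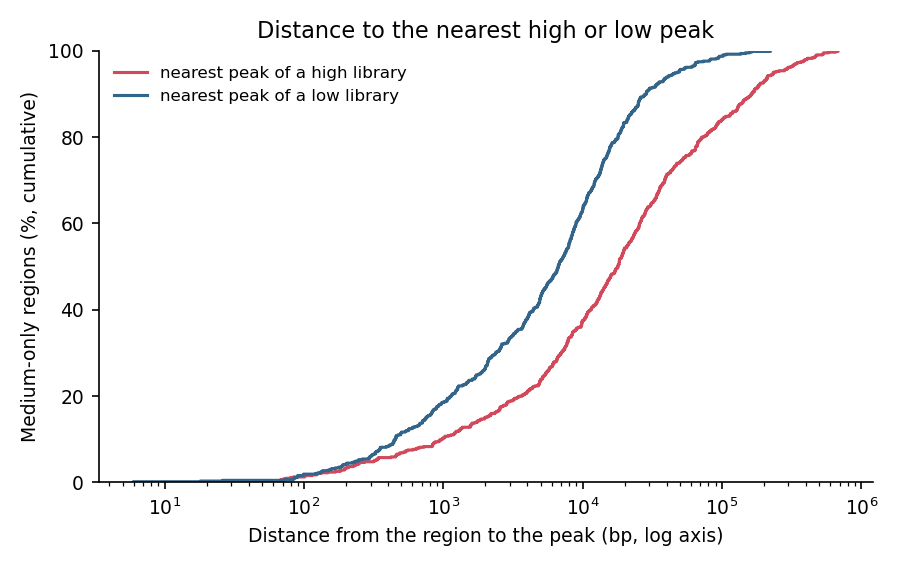
The curves give the cumulative share (%) of the 626 medium-only regions by the distance in bp (log axis) to the nearest peak of any of the 4 high libraries (red) and any of the 4 low libraries (blue). The low curve reaches its median at 6673 bp and the high curve at 17882 bp.

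The medium-only regions lay on all 29 chromosomes. Chromosome 18 held the most, 43 of 626 (6.87%, Wilson 95% interval 5.14 to 9.12%), against 3.81% of all regions called in the 4 medium libraries and 4.00% of all joined regions. Chromosomes 2, 5 and 25 held 30 each. Of the regions called in the 4 medium libraries, 8.25% were medium-only on chromosome 18, 7.90% on 23 and 7.18% on 2. Without regions of fold below 3, this share was highest on chromosome 25 at 8.70%, against 8.58% on chromosome 18. Chromosome 28 held the fewest, 4 regions (0.639%), against 1.93% of all regions called in the 4 medium libraries. Chromosome 8 had the most regions called in the 4 medium libraries, 901, of which 20 were medium-only, and without the regions of fold below 3 there were 500 with 10 medium-only. These shares are descriptions, and the intervals cover counting error only.

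Along the chromosomes, medium-only regions were common near the far end. Of the 626, 189 (30.2%, Wilson 95% interval 26.7 to 33.9%) lay within 5 Mb of the last peak of their chromosome, and 45 (7.19%) within its first 5 Mb. Cattle autosomes are acrocentric, with the centromere at one end, and in the usual numbering it lies at the start. For all regions called in the 4 medium libraries the share near the far end was 17.5%, and for all joined regions it was 20.5%. Regions called at the high and medium but not the low level stood at 39.7%, and those at the medium and low but not the high level at 7.23%. The medium-only regions thus lay between the patterns that included the neighbouring levels. Without regions of fold below 3, the shares were 31.4% of 598 medium-only regions and 20.5% of 10900 regions called in the 4 medium libraries. No test of these differences was made, since regions are not replicates and the same calls define the patterns.

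**Figure D4:**
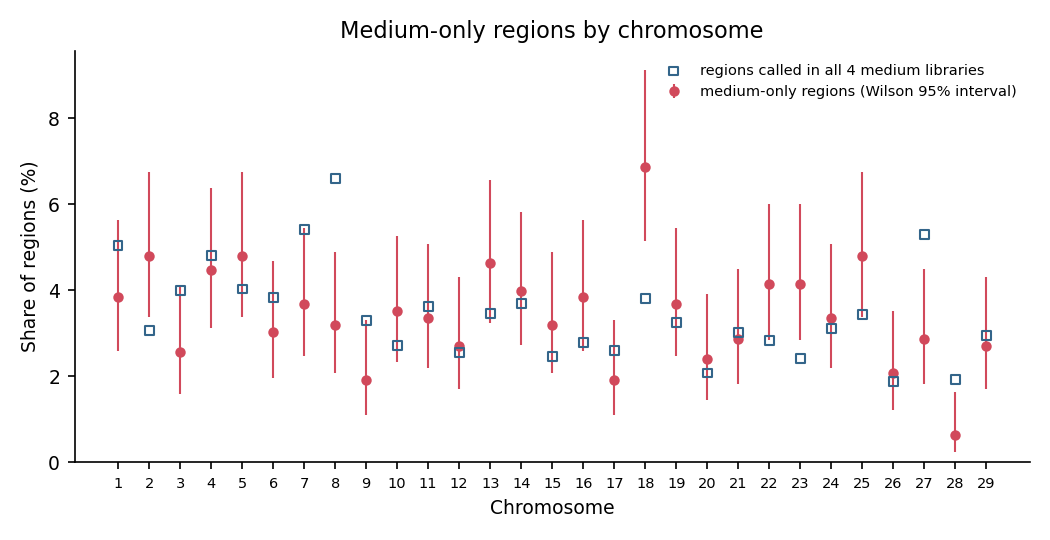
Points give the share (%) of the 626 medium-only regions on each of the 29 chromosomes with Wilson 95% intervals, and open squares the share of the 13669 regions called in all 4 medium libraries. Chromosome 18 stands highest among the medium-only regions at 6.87%, and chromosome 28 lowest at 0.639%.

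The rule did not use the contrast of tough against tender beef, so this could be tested within the medium libraries. The measure was the log2 of the scaled pileup, with each library centred on its median over all 13669 regions, and limma was fitted to all of these with Benjamini-Hochberg adjustment. With 2 libraries per group, tests rest on the spread of animals estimated over all regions together. The groups also differed in duplicates and fragment length. Of 11889327 and 12635437 tags in tender beef, 6589423 and 6886676 were left after duplicates were removed. Of 14981895 and 13439772 tags in tough beef, 6010993 and 5969045 were left. The estimated fragment length was 157 and 146 bp in tender and 162 and 175 bp in tough beef. The part of these differences in the calls was not tested. Tough beef was higher at 18 medium-only regions (2.88%) and lower at 3 (0.479%) at an adjusted p under 0.05 (limma). Among all regions tested, 29.6% were called higher and 1.95% lower. The share of calls higher in tough beef was thus well below the background. The low pileup of the medium-only regions, with medians of 11 to 13 tags against 16 to 19 over all regions, gives less precision, and its part in this gap was not tested. At an unadjusted p under 0.05 there were 54 medium-only regions (8.63%) against 37.2% of all regions.

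The background was uneven. Among the 2769 tested regions of fold below 3 in all 4 medium libraries, 82.8% were called higher in tough beef, and among the other 10900 regions 16.1% were called higher and 2.34% lower. Of the 28 medium-only regions on dense ground, 16 were called higher (57.1%) and none lower. Of the other 598, 2 were called higher (0.334%) and 3 lower (0.502%), so that calls of higher pileup were not the more frequent ones there. Most calls thus came from the few regions on dense ground. Their median scaled pileup was 22.9 and 20.5 in the tender and 25.0 and 25.8 in the tough libraries. Their median fold enrichment was 1.91 and 1.94 in tender and 2.10 and 2.03 in tough beef. When fold enrichment replaced pileup as the measure, limma called none of the 626 regions and none of all 13669, with 68 (10.9%) and 2183 (16.0%) at an unadjusted p under 0.05.

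The calls also followed the peaks that entered, and the fit was repeated with fewer libraries. With 1 medium library left out, 1 group holds a single library, which limma assumes to vary like the other group. These fits are no measure of stability. The median log2 difference per region was 0.041 over 1281 medium-only regions without MTO_1 and 0.040 over 1218 without MTO_2. It was 0.094 over 966 without MTE_1 and 0.069 over 832 without MTE_2, against 0.048 over the 626. The direction of the calls turned when each list was cut to its strongest 9555 peaks, a setting added for these calls after the values were seen. Of the 49 medium-only regions then left, none was called higher and 29 lower in tough beef, against 1400 higher and 1546 lower of all 4619 regions tested.

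**Figure D5:**
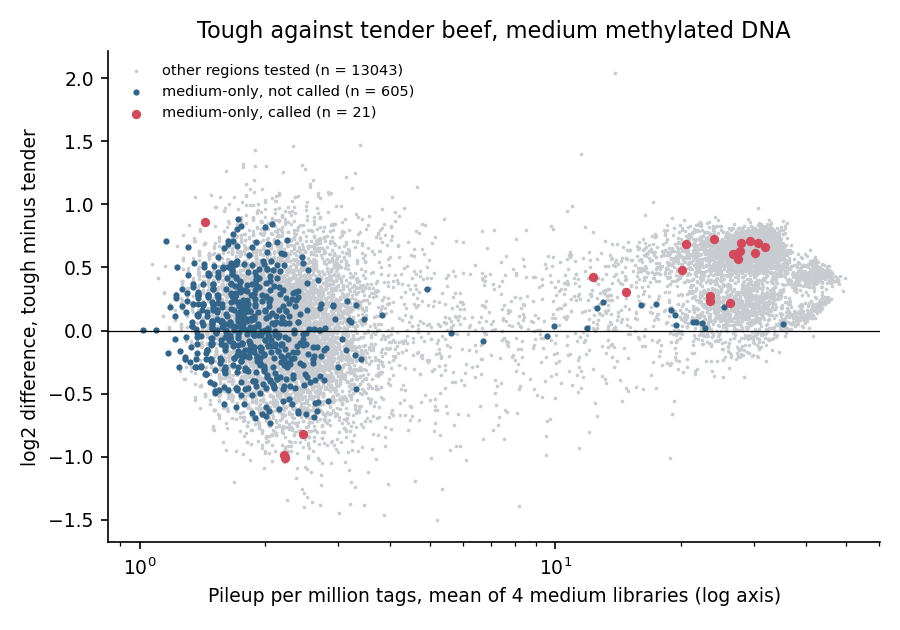
Each point is 1 of the 13669 regions called in all 4 medium libraries, with its mean scaled pileup (per 1000000 tags, log axis) against the log2 difference of tough minus tender beef, after centring. Of the 626 medium-only regions, 21 passed the limma test (red), 18 above and 3 below 0, and most of these lie at high pileup, while the 605 others (blue) lie mostly at low pileup on both sides of 0.

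The largest rise in tough beef was at chr7:16522847-16523191 (345 bp), with 7 and 7 tags in the tender and 11 and 11 tags in the tough libraries. The scaled pileup was 1.06 and 1.02 against 1.83 and 1.84, a log2 difference of 0.86 ± 0.29 (SE, limma adjusted p = 0.032). Both tough libraries were above both tender ones, and no merged high or low list had a peak there. The next were 2 regions on dense ground. At chr25:19021711-19021964 (254 bp) the pileup was 122 and 126 tags in tender and 170 and 186 in tough beef (log2 difference 0.73 ± 0.076 SE, limma adjusted p = 3.1e-06), while the fold was 1.61 and 1.65 against 1.65 and 1.73. At chr11:70174733-70174938 (206 bp) it was 155 and 151 against 208 and 225 tags (0.71 ± 0.075 SE, limma adjusted p = 3.2e-06), with folds of 1.76 and 1.73 against 1.76 and 1.84. In both, the pileup separated the groups and the fold hardly moved. No merged high or low list had a peak at the chromosome 25 region, and 3 had one at the chromosome 11 region.

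The 3 regions that fell in tough beef lay on nearly empty ground. At chr10:94936010-94936305 (296 bp) there were 17 and 23 tags in tender and 6 and 12 in tough beef, with folds of 12.1 and 15.7 against 5.09 and 8.93 (log2 difference -1.01 ± 0.34 SE, limma adjusted p = 0.035). At chr27:44280925-44281204 (280 bp) there were 14 and 27 tags in tender and 9 and 8 in tough beef (-0.99 ± 0.32 SE, limma adjusted p = 0.030). At chr26:47865923-47866293 (371 bp) there were 20 and 23 against 10 and 11 tags (-0.82 ± 0.27 SE, limma adjusted p = 0.028). The groups did not overlap at any of the 3. The tough libraries stood far apart from each other at the chromosome 10 region, and the tender libraries at the chromosome 27 region. A peak was also present in 3 merged high or low lists at the chromosome 10 region. There was 1 such list for the chromosome 27 region and 2 for the chromosome 26 region.

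Without a test, both tough libraries lay above both tender ones in 138 medium-only regions (22.0%) and below them in 95 (15.2%). Over all regions tested these shares were 45.4% and 13.6%. Within the 598 regions outside the small set they were 19.7% and 15.9%, against 34.2% and 16.7% of the 10900 other regions tested. Within the 28 they were 20 regions and 0, against 89.2% and 1.34% of the 2769 tested regions of fold below 3. The median log2 difference per region was 0.05 over the 626 regions and 0.19 over all 13669.

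Taken per library, the median of the centred log2 pileup over the 626 regions was -0.47 in MTE_1, -0.55 in MTE_2, -0.54 in MTO_1 and -0.54 in MTO_2. Tough minus tender beef was -0.03 (-0.51 over the 49 regions left with equal peak numbers), with the opposite sign to the median of the single differences, and the libraries overlapped (two-sided exact permutation test, p = 1, and 2 libraries against 2 cannot go below 0.33). Without the 28 regions on dense ground it was 0.08 (exact permutation test, p = 0.33). The length under peaks did not separate the groups either, with medians of 207 and 202 bp in tender and 198 and 218 bp in tough beef (exact permutation test, p = 1). The estimated fragment length, which bounds that length from below, was 157 and 146 bp in tender and 162 and 175 bp in tough beef.

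Between single medium libraries, the spread over the 598 regions differed little between pairs, and 3 of the 4 pairs of a tender and a tough library had a larger spread than both pairs within a group. The SD of the log2 ratio of scaled pileup was 0.43 between MTE_1 and MTE_2 and 0.42 between MTO_1 and MTO_2. It was 0.43 to 0.45 for the 4 pairs of a tender and a tough library. Pearson's r over these regions was 0.63 and 0.58 within the groups and 0.56 to 0.60 between them, as a description of regions that share libraries, depth and the rule of choice.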

How the data were processed

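MBD-seq peaks of 12 libraries from 2 tender and 2 tough animals were analysed. The authors used SOAPnuke for cleaning and BWA (0.7.7 in the submitters' notes) for alignment to bosTau8. Their peaks come from MACS2 with a q-value limit of 0.01 and no input library, per library (version 2.1.1.20160309) and on merged replicates (2.1.0.20150731). The deposited lists give pileup, a signal of extended tags not divided by depth, fold enrichment as a ratio to the local background, and the −log10 of p-value and q-value. They are the authors' values. Local background was recomputed as (pileup + 1) / fold − 1. Depth was 3677473 to 7981292 tags left per library, read from the list headers. It limits calls near 4 or 5 tags.

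Peaks were joined with Python 3.11.15 and pandas 2.3.3, and the code was checked against bedtools 2.31.1. Within a region the highest peak of a library was used. Pileup per 1000000 tags was tested with limma 3.58.1 (R 4.3.3), with a trend and a threshold of 0.05. On simulated data, 167 of 200 regions changed by 1 on the log2 scale were called, with 5 false calls among 13669 regions. The simulated noise was normal with a spread set by a region's mean alone, as the fit assumes. The changed regions were drawn from all 13669, so recovery at medium-only regions was not measured. Exact permutation tests were two-sided. Replicates are libraries whose numbers come from the titles, and the Methods describe 2 animals per group. Alternatives were stricter −log10 q or fold limits, other joining and scaling, each library left out and replicates as a block. Leaving out regions of fold below 3 was added later. Named regions were the 5 with the highest lowest fold (ties by mean fold), the widest, the 3 largest changes each way past the threshold, the farthest from other levels and the weakest. Members and rules were chosen with earlier results of these data known. Chromosomes other than 1 to 29, gene lists and CpG content were not analysed here.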

Additional observations from a re-analysis of the deposited data

Results flagged for a closer look

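Chromosome X lies outside the chromosomes on which the medium-only regions were defined, and the same rule gave 10 medium-only regions there, among 442 regions called in all 4 medium libraries (2.26%). This was flagged as a signal in data that the comparisons did not use. No value over the 4 medium libraries, of 32 looked at for the named regions and the medians, stood apart from the other 3 by Dixon's criterion, which flags about 1 in 20 groups by chance.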

How the results depend on the processing

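The number of medium-only regions, 626, was within 1.5 times of that value with −log10 q of at least 3 or 5, fold of at least 3, peaks up to 500 bp apart joined, chromosome X and 50% overlap. It was 49 when every list was cut to its strongest 9555 peaks, 5546 from the merged lists, 2404 with 3 medium libraries required, 1801 with 1 high or low peak allowed, and 642 to 1281 with a library left out, more in each case. The share with a merged high or low peak, 83.4%, became 89.8% with −log10 q of at least 5, 93.9% with equal peak numbers, 70.0% with merged peaks of −log10 q of at least 5, and 78.8 to 89.5% with a library left out. The count that differed between tough and tender beef, 21, became 0 with fold enrichment as the measure, 5 without the regions of fold below 3, 29 (all lower in tough beef) with equal peak numbers and 0 to 53 with a medium library left out, where 1 group has a single library. The replicate block gave 26 (the correlation over regions between deviations of same-numbered libraries was -0.02, and tender and tough replicates are different animals). Non-overlapping regions, 233, became 552 to 837 with a medium library left out, since fewer libraries overlap less, and the block gives no value for them. The median difference, -0.03, changed sign with fold as the measure (0.0059), −log10 q of at least 3 (0.0069), fold of at least 3 (0.074), joined peaks (0.036) and without the regions of fold below 3 (0.083), was -0.51 with equal peak numbers, and was -0.082 to 0.12 with a library left out. The difference in length under peaks, 3.5 bp, became -2.5 bp with −log10 q of at least 5, -1.0 bp with equal peak numbers and -5.25 to 10 bp with a library left out. Except where fewer libraries set the count, the cause was not tested. The analysis of genes and CpG content was not run. The share on chromosome 18 was within its interval under the 18 settings run for it, which left out merged lists, 50% overlap, chromosome X and looser rules. The high libraries had the fewest tags left, and what depth limits was not tested.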
